A study of Sus scrofa with 12 samples.

Results

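The genes described here are 10 receptors and signal transducers of the Activin and TGF-β pathway in pig induced pluripotent stem cells: the receptors ACVR1B, ACVR2A, ACVR2B, TGFBR1, TGFBR2 and TGFBR3, and the intracellular proteins SMAD2, SMAD3, SMAD4 and SMAD5. They were taken by gene name, with earlier results of these data known. Each name matched a single row, so the set is 10 of the 24358 genes in each of 2 expression tables, and all 10 passed the filter on low values in both.

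Poly(A) RNA was sequenced from 12 libraries in 4 groups of 3. The first table holds PC-iPS cells, which are pluripotent cells made from adult domestic pig pericytes, as unmodified cells (WT) and as cells with a FLAG-tdTomato reporter knocked in at NANOG (knock-in). The second table holds cells grown with Activin A and cells grown with SB431542. By the study's methods, knock-in and WT cells were kept in LCDMV medium, the treatments were given in the same medium without LIF, and the treated cells carried the reporter. The sample labels name only the agent, and they do not give the dose or time of the sequenced cultures. The study ran its cytokine screen without feeder cells, and whether the sequenced treated cultures had feeders is not stated. The knock-in lines came from independently transfected cultures that were sorted for tdTomato and were not clonal. They may therefore hold cells with different numbers of inserted alleles. The labels do not say that the replicates of the other groups were separate cultures, so p-values measure the spread between these libraries, which may be technical. Feeder cells were removed by letting them attach for 1 h before the suspended cells were collected.

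Activin, NODAL and TGF-β are secreted ligands that bind a type II receptor kinase, which then activates a type I receptor kinase. ACVR2A and ACVR2B are the type II receptors for Activin and ACVR1B (ALK4) is its main type I receptor, while TGFBR2 and TGFBR1 (ALK5) bind TGF-β. The type I receptors phosphorylate SMAD2 and SMAD3, which join SMAD4 and enter the nucleus, where they act on genes such as NANOG, LEFTY2 and SMAD7. SMAD5 is activated by the type I receptors of bone morphogenetic proteins (BMP). SB431542 is a small molecule that blocks the kinases of ACVR1B, TGFBR1 and ACVR1C and so stops SMAD2 and SMAD3 from being phosphorylated. It acts on receptor activity, and the values below are of mRNA only. In primed pluripotent stem cells of several mammals, Activin signalling helps to keep NANOG on.

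Every receptor and SMAD of the set was expressed in every library. The lowest value was 1.53 FPKM (fragments per kilobase of transcript scaled to the mapped reads), for TGFBR2 in knock-in library 2, and the highest was 37.5 FPKM, for TGFBR1 in WT library 2. Since FPKM is scaled to gene length, levels can be set side by side between genes. Over the 12 libraries the mean level was 32.4 FPKM for TGFBR1, 25.4 for SMAD3, 23.8 for SMAD4 and 18.1 for ACVR2B. These 4 genes stood above the other 6 members in each library. The mean level was 7.33 FPKM for SMAD5, 5.82 for SMAD2, 4.80 for ACVR1B, 3.67 for ACVR2A, 3.42 for TGFBR3 and 1.99 for TGFBR2. TGFBR1 was above 89.5% of the 18232 genes detected in at least 1 library, and TGFBR2 was above 43.5% of them. Both tables enter these means, and whether they were scaled together is not stated.

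**Figure D1:**
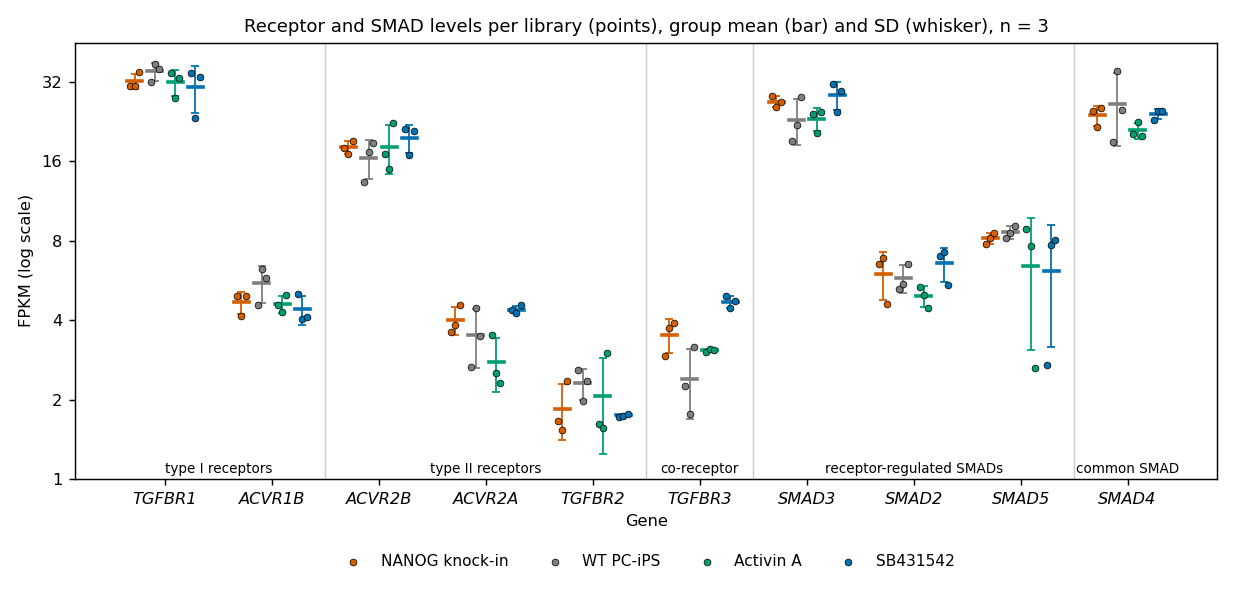
FPKM on a log axis for each of the 10 genes, ordered by role, in the 4 groups. Points are libraries, bars are group means and whiskers are SD (n = 3). TGFBR1, SMAD3, SMAD4 and ACVR2B lie between 13.4 and 37.5 FPKM, and the other 6 genes lie between 1.53 and 9.12 FPKM.

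Among the type I receptors, the one for TGF-β was far more abundant than the one for Activin. TGFBR1 (chromosome 1, 240842735 to 240918267, Sscrofa11.1) was at 30.9, 30.9 and 34.7 FPKM in knock-in libraries 1 to 3 and at 32.0, 37.5 and 35.7 FPKM in WT libraries 1 to 3. It was at 34.6, 27.7 and 33.2 FPKM under Activin A and at 34.6, 23.4 and 33.4 FPKM under SB431542. The ranges of the 4 groups overlapped, and library 2 was the lowest under both treatments. ACVR1B (chromosome 5, 17314322 to 17350726) was at 4.93, 4.15 and 4.93 FPKM in the knock-in, at 4.57, 6.26 and 5.77 FPKM in WT, at 4.55, 4.29 and 4.98 FPKM under Activin A and at 5.04, 4.05 and 4.10 FPKM under SB431542. In a single library, the ratio of TGFBR1 to ACVR1B ran from 5.78 to 8.13, with a median of 6.76. TGFBR1 thus made up 85.2% to 89.1% of the FPKM of these 2 genes. The remaining receptor that SB431542 blocks, ACVR1C (ALK7), was at 0.05 FPKM or less in every library.

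Among the type II receptors, ACVR2B was above the TGF-β receptor TGFBR2 in every library, and ACVR2A was above it by mean in each group but not in Activin A library 3, where ACVR2A was at 2.30 FPKM and TGFBR2 at 3.01 FPKM. ACVR2B (chromosome 13, 23237699 to 23276086) was at 18.0, 17.1 and 19.1 FPKM in the knock-in, at 13.4, 17.3 and 18.8 FPKM in WT, at 17.0, 15.0 and 22.3 FPKM under Activin A and at 21.1, 16.8 and 20.9 FPKM under SB431542. It gave 71.9% to 80.8% of the summed FPKM of ACVR2A, ACVR2B and TGFBR2. ACVR2A (chromosome 15, 4177333 to 4259056) was at 3.60, 3.85 and 4.55 FPKM in the knock-in and at 2.65, 4.44 and 3.48 FPKM in WT, and its levels under the treatments are given below. ACVR2B exceeded ACVR2A by 3.89 to 9.69 times in the same library, with a median of 4.85.

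TGFBR2 (chromosome 13, 16784370 to 16875828), the type II receptor without which TGF-β does not signal, was the lowest member by mean in each of the 4 groups. It was at 1.65, 1.53 and 2.35 FPKM in the knock-in, at 2.59, 1.97 and 2.35 FPKM in WT, at 1.62, 1.57 and 3.01 FPKM under Activin A and at 1.72, 1.74 and 1.77 FPKM under SB431542. Its partner TGFBR1 was 11.0 to 21.4 times higher in the same library, with a median ratio of 18.2. TGFBR2 gave 6.33% to 13.9% of the type II total. TGFBR3 (betaglycan, chromosome 4, 125109939 to 125310788), a co-receptor with no kinase that presents TGF-β to TGFBR2 and binds inhibin, was at 2.93, 3.74 and 3.91 FPKM in the knock-in and at 2.26, 1.77 and 3.18 FPKM in WT. In WT cells the ranges of TGFBR2 and TGFBR3 overlapped, while in the knock-in, Activin A and SB431542 groups TGFBR3 was above TGFBR2 in every library.

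Of the SMADs that Activin and TGF-β receptors phosphorylate, SMAD3 had the higher mRNA level. SMAD3 (chromosome 1, 164998457 to 165124455) was at 28.2, 25.7 and 26.7 FPKM in the knock-in and at 19.0, 21.9 and 28.0 FPKM in WT. SMAD2 (chromosome 1, 97415360 to 97511388) was at 6.51, 6.89 and 4.62 FPKM in the knock-in and at 5.24, 5.51 and 6.55 FPKM in WT. SMAD3 exceeded SMAD2 by 3.40 to 5.79 times in the same library and gave 77.3% to 85.3% of their sum. SMAD4 (chromosome 1, 100521843 to 100633501), the partner shared by all receptor-activated SMADs, was at 24.7, 21.6 and 25.4 FPKM in the knock-in and at 19.0, 35.0 and 25.1 FPKM in WT. Its ratio to SMAD3 ran from 0.73 to 1.60 with a median of 0.89. SMAD4 and SMAD3 overlapped in the WT, Activin A and SB431542 groups, and in the knock-in SMAD3 was above SMAD4. SMAD2 and SMAD4 lie 3010454 bases apart, and SMAD4 was 3.13 to 6.36 times SMAD2.

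SMAD5 (chromosome 2, 138287635 to 138344092) was at 7.78, 8.21 and 8.52 FPKM in the knock-in and at 8.18, 8.56 and 9.12 FPKM in WT. Under Activin A it was at 8.89, 7.67 and 2.63 FPKM, and under SB431542 it was at 2.70, 7.69 and 8.06 FPKM. It was thus low in Activin A library 3 and SB431542 library 1 and lay within 7.67 to 9.12 FPKM in the other 10 libraries. The lowest of these 10 was 2.84 times the higher of the 2 low values. Few genes shared this split. Of 10716 rows above 1 FPKM in the other 4 treated libraries, 2 had less than 50% of the lowest of those libraries in both low ones, namely SMAD5 and the non-coding RNA row RF00407. RF00407 was singled out after its values had been seen, and it was also near 0 in 5 libraries of the first table in which SMAD5 was not low. The low libraries belong to different treatments and different replicate numbers. Whether the low SMAD5 values come from how reads were assigned to genes was not tested, since read counts were not used.

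**Figure D2:**
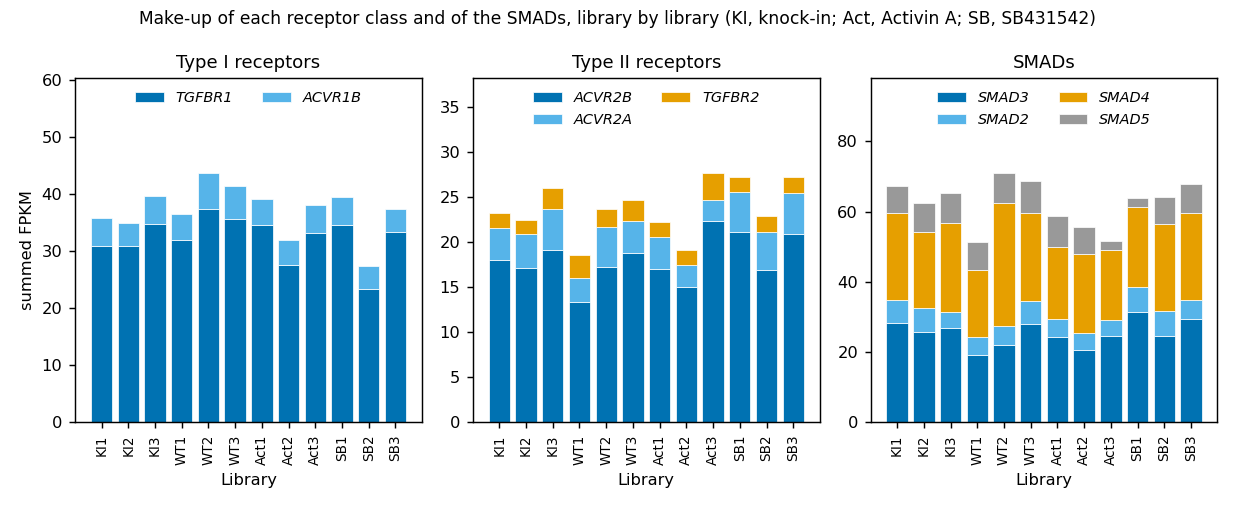
Summed FPKM per library of the type I receptors, the type II receptors and the SMADs, with each gene as a part of the bar. The type I sum runs from 27.4 to 43.7 FPKM, the type II sum from 18.6 to 27.6 FPKM and the SMAD sum from 51.4 to 71.0 FPKM, and TGFBR1, ACVR2B, SMAD3 and SMAD4 fill most of the bars.

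The first comparison asked whether cells that carry the reporter at NANOG differ from WT cells in their receptors and SMADs. Of the 10 genes, 0 passed the call rule, which asks for an adjusted p of at most 0.05 together with a log2 fold change of 1 or more in size (limma on log2 of FPKM + 1, Benjamini-Hochberg adjustment over 14014 genes), and 0 passed the adjusted p alone. Over all genes 2.31% passed the first rule and 7.22% passed the second. At an unadjusted p of at most 0.05, limma gave 0 of the 10 members against 28.6% of all genes. The knock-in and WT ranges overlapped for all 10 members, whereas 35.7% of all genes had ranges that did not overlap. The median absolute log2 fold change was 0.15 over the members and 0.23 over all genes tested.

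By gene, the log2 fold change of knock-in against WT ran from -0.22 for TGFBR2 (SE 0.16) to 0.42 for TGFBR3 (SE 0.19). TGFBR3 was nearest to the threshold, with a mean of 3.52 ± 0.52 FPKM in the knock-in and 2.40 ± 0.71 FPKM in WT (SD, n = 3), a 95% interval of -0.02 to 0.87 and an adjusted p of 0.19 from limma. Its WT library 3, at 3.18 FPKM, lay above knock-in library 1, at 2.93 FPKM. SMAD3 gave 0.23 (SE 0.15), ACVR2A 0.16 (SE 0.18), ACVR2B 0.14 (SE 0.14) and SMAD2 0.04 (SE 0.18) on the same log2 scale. ACVR1B gave -0.20 (SE 0.16), TGFBR1 -0.12 (SE 0.11), SMAD4 -0.10 (SE 0.21) and SMAD5 -0.07 (SE 0.12). All 10 of the 95% intervals lay inside a log2 fold change of -1 to 1, so a change as large as the call rule asks for was outside each interval on the log2(FPKM + 1) scale. That scale shrinks the folds of the lower members. At a pseudocount of 0.01, TGFBR3 gave 0.58 and TGFBR2 -0.33. The intervals therefore do not bound the fold of FPKM itself for the lower members. Smaller changes were not resolved, since the intervals reached as far as -0.60 for TGFBR2 and 0.87 for TGFBR3. SMAD4 varied most among the more abundant members of the WT group, where library 2 was at 35.0 FPKM and library 1 at 19.0 FPKM.

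**Figure D3:**
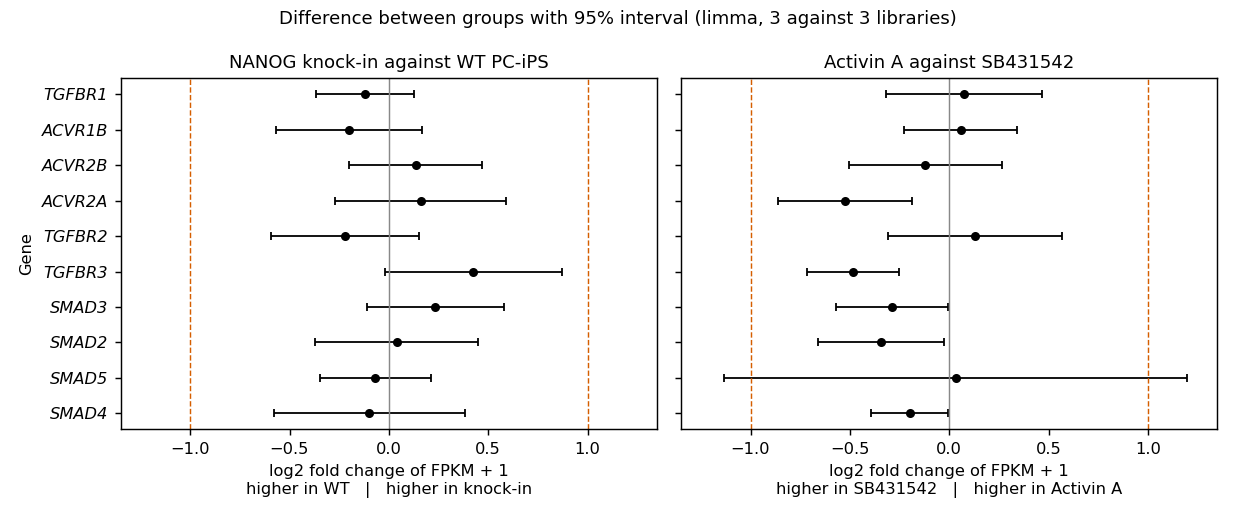
Log2 fold change of FPKM + 1 for each gene (point) with its 95% interval (line) from limma, for knock-in against WT and for Activin A against SB431542, with 3 libraries per group. Dashed lines mark the fold change that the call rule asks for. On the left all 10 intervals cross 0. On the right those of ACVR2A, TGFBR3, SMAD2, SMAD3 and SMAD4 lie below 0 before adjustment over all genes, and that of SMAD5 reaches past both dashed lines.

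The second comparison asked whether receptor and SMAD transcripts differ between cells whose receptors were stimulated and cells whose type I receptors were blocked. Of the 10 genes, 0 passed the call rule and 0 passed the adjusted p alone in limma. Over all 13999 genes 0.0929% passed the first rule and 0.136% passed the second. At an unadjusted p of at most 0.05, limma gave 5 of the 10 members, ACVR2A, TGFBR3, SMAD2, SMAD3 and SMAD4, against 12.8% of all genes. Each of these 5 had the lower mean under Activin A and was lower there in 3 of 3 same-numbered pairs of libraries. Activin A and SB431542 ranges did not overlap for 4 of the 10 members, ACVR2A, TGFBR3, SMAD2 and SMAD4, whereas 20.0% of all genes had ranges that did not overlap and 10.8% had every Activin A library lower. The median absolute log2 fold change was 0.16 over the members and 0.12 over all genes.

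Libraries with the same number deviated together in this table, so the replicate number was also used as a block in limma. With the block 0.707% of all genes passed the call rule and 2.88% passed the adjusted p alone. Of the members, 0 passed either rule with the block, and 5 of 10 were at an unadjusted p of at most 0.05, against 23.7% of all genes.

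TGFBR3 had the smallest adjusted p of the members. It was at 3.04, 3.11 and 3.07 FPKM under Activin A and at 4.93, 4.44 and 4.72 FPKM under SB431542. The 3 Activin A libraries lay close together, and each SB431542 library was above them. The log2 fold change was -0.48 (SE 0.096, 95% interval -0.71 to -0.25), with an adjusted p of 0.14 from limma and 0.062 with the replicate block. The exact two-sided permutation test gave 0.1, the smallest p that 3 libraries against 3 can give.

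ACVR2A had the largest difference in fold. It was at 3.51, 2.52 and 2.30 FPKM under Activin A and at 4.35, 4.26 and 4.55 FPKM under SB431542. The SB431542 libraries lay close together, while the Activin A libraries were more spread and all below them. The log2 fold change was -0.53 (SE 0.14, 95% interval -0.86 to -0.19), with an adjusted p of 0.22 from limma and 0.10 with the replicate block. Its paralog ACVR2B gave -0.12 (SE 0.16, 95% interval -0.51 to 0.26), and it was higher under Activin A in 1 of 3 pairs. The ratio of ACVR2B to ACVR2A was 4.85 to 9.69 under Activin A and 3.95 to 4.86 under SB431542.

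All of the SMADs that carry the Activin signal had lower means under Activin A. SMAD2 was at 5.34, 5.0 and 4.46 FPKM under Activin A and at 7.03, 7.22 and 5.45 FPKM under SB431542. The groups did not overlap, though SB431542 library 3 lay just above the highest Activin A library. Its log2 fold change was -0.34 (SE 0.13, 95% interval -0.66 to -0.03), with an adjusted p of 0.36 from limma and 0.11 with the block. SMAD3 was at 24.2, 20.4 and 24.7 FPKM under Activin A and at 31.4, 24.6 and 29.5 FPKM under SB431542. Here SB431542 library 2 and Activin A library 3 were nearly level, so the groups overlapped slightly. Its log2 fold change was -0.29 (SE 0.12), with an adjusted p of 0.39 from limma and 0.077 with the block. SMAD4 was at 20.3, 22.6 and 20.0 FPKM under Activin A and at 22.9, 24.8 and 24.8 FPKM under SB431542. The difference was the smallest of the 5, with a log2 fold change of -0.20 (SE 0.081) and an adjusted p of 0.38 from limma and 0.16 with the block. As a sum, the 4 SMADs came to 51.7 to 58.7 FPKM under Activin A and 64.0 to 67.8 FPKM under SB431542, a description of these libraries that includes the uneven SMAD5.

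**Figure D4:**
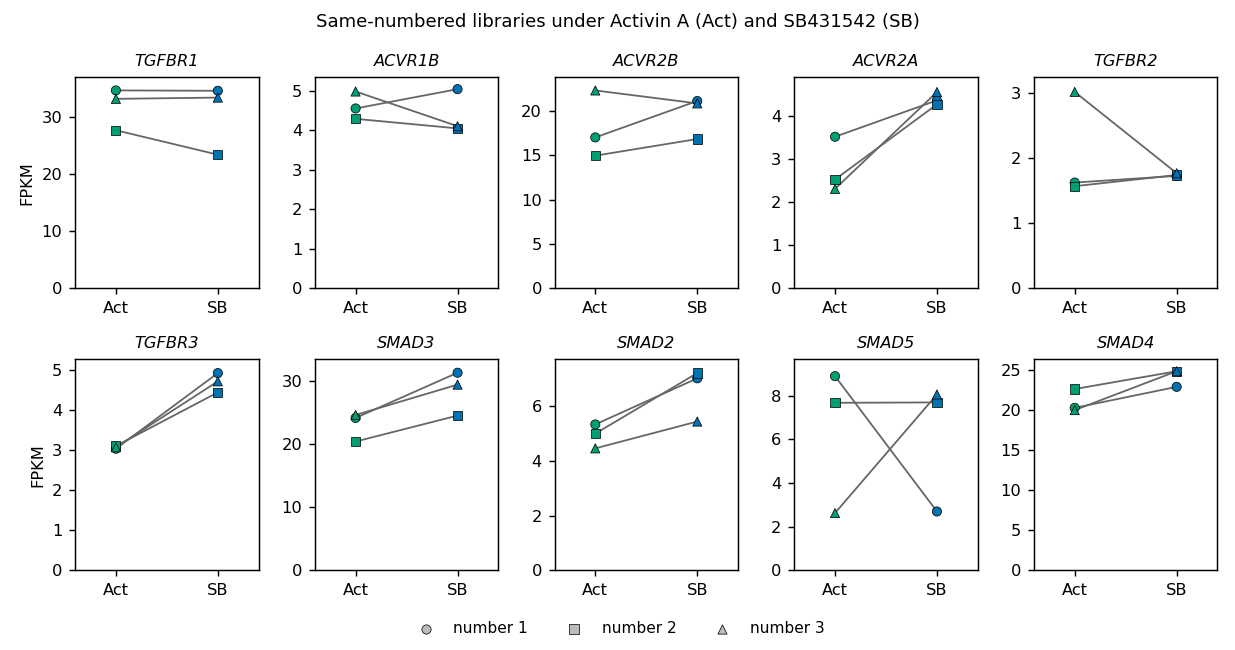
FPKM of each gene under Activin A (Act) and SB431542 (SB), on axes that start at 0. Lines join libraries with the same replicate number. ACVR2A, TGFBR3, SMAD2, SMAD3 and SMAD4 are lower under Activin A on all 3 lines, and the SMAD5 lines cross.

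The type I receptors, which are the targets of SB431542, gave log2 fold changes near 0. TGFBR1 gave 0.08 (SE 0.16, 95% interval -0.32 to 0.47) and ACVR1B gave 0.06 (SE 0.12, 95% interval -0.23 to 0.34). TGFBR2 gave 0.13 (SE 0.18, 95% interval -0.31 to 0.57). Its positive value came from Activin A library 3, at 3.01 FPKM, and without that library it was -0.08. SMAD5 gave 0.03 with an SE of 0.49 and a 95% interval of -1.13 to 1.20, the widest of the set, and with Activin A library 3 and SB431542 library 1 left out, an alternative chosen after seeing the data, it gave 0.06. The intervals of the other 9 members lay inside -1 to 1 on the log2(FPKM + 1) scale, which shrinks the folds of the lower ones. At a pseudocount of 0.01, ACVR2A gave -0.68 and TGFBR3 -0.61. That 5 members were nominally lower and the other 5 were not is no test that the members differ from each other in their response, and that was not tested.

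Levels in the 2 tables can be placed side by side without a test, though the medium, and possibly the use of feeders, differed between them. TGFBR3 had its lowest group mean in WT at 2.40 FPKM, then 3.07 FPKM under Activin A, 3.52 FPKM in the knock-in and 4.70 FPKM under SB431542. ACVR2A went from 2.78 FPKM under Activin A to 3.52 FPKM in WT, 4.0 FPKM in the knock-in and 4.39 FPKM under SB431542. SMAD2 went from 4.94 FPKM under Activin A to 5.77 FPKM in WT, 6.0 FPKM in the knock-in and 6.56 FPKM under SB431542. In all 3 genes the knock-in mean lay between those of the treatments. The knock-in ranges of ACVR2A and SMAD2 overlapped that of SB431542, and those of TGFBR3 and SMAD2 overlapped that of Activin A. No untreated culture without LIF is among the samples, so a fall under Activin A and a rise under SB431542 cannot be told apart.

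Other genes of the pathway were described by fixed lists, at the adjusted p alone, which 7.22% of all genes passed in the knock-in comparison and 0.136% between the treatments (2.88% with the block). Without Activin A library 2, SB431542 library 1 or SB431542 library 3, 0 of all genes passed between the treatments in limma without the block (1325 to 1697 at an unadjusted p of at most 0.05). Each call of that comparison named below from limma without the block is therefore lost there. The fit with the block was not repeated with libraries left out. Of 11 other receptors and SMADs, 9 could be tested. SMAD9, a BMP-activated SMAD, was lower in the knock-in, at 0.72 to 0.89 FPKM against 1.75 to 3.35 FPKM in WT (log2 fold change -0.85, SE 0.19, adjusted p 0.040 from limma), and the rest did not pass. With the replicate block the adjusted p of SMAD9 was 0.064. In this comparison the block is only an alternative setting, since the replicate numbers do not pair these libraries. Over all genes 360 passed the adjusted p with it and 1012 without it. SMAD7, the inhibitory SMAD that is itself a target of the pathway, was higher under Activin A than under SB431542, at 6.67 to 8.07 FPKM against 1.11 to 1.75 FPKM (log2 fold change 1.80, SE 0.14, adjusted p 0.024), and again the rest did not pass. The BMP receptors ACVR1 and BMPR1A and the BMP-activated SMAD1 were each above 8 FPKM in every library, while ACVRL1, whose gene lies 30166 bases from ACVR1B, was at 0.021 FPKM or less.

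Of 10 co-receptors and membrane regulators, 8 were in the tables and 5 could be tested. In the knock-in comparison 0 of 5 passed the adjusted p, with 4 of 5 at an unadjusted p of at most 0.05, beside 7.22% and 28.6% of all genes. Under Activin A, LDLRAD4, a membrane protein that restrains SMAD2 and SMAD3, was higher (log2 fold change 0.96, SE 0.087, adjusted p 0.035 from limma). With the block 3 of 5 passed, beside 2.88% of all genes: LDLRAD4, PMEPA1 (1.74, adjusted p 0.0083) and the pseudoreceptor BAMBI (1.11, adjusted p 0.016), all higher under Activin A. Of 27 SMAD partners and regulators 25 could be tested, and 2 were higher in the knock-in, the co-repressor TGIF1 (1.33, adjusted p 0.0093) and HGS (0.76, adjusted p 0.029), with 0 lower. That share is near the 7.22% of all genes that passed. With the block TGIF1 had an adjusted p of 0.012 and HGS of 0.056. Between the treatments 0 of 25 passed without the block, with 4 at an unadjusted p of at most 0.05, beside 12.8% of all genes. With the block 1 of 25, TGIF2, was lower under Activin A (-0.42, adjusted p 0.043), beside 2.88% of all genes.

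Of 12 SMAD2 and SMAD3 targets, 8 could be tested. NANOG and ID1 were higher in the knock-in (log2 fold changes 2.06 and 1.56, adjusted p 0.025 and 0.023 from limma, 0.036 and 0.049 with the block). NANOG and SMAD7 were higher under Activin A (3.18 and 1.80, adjusted p 0.042 and 0.024 from limma). LEFTY2 also passed, but it is listed at 0 in the 3 SB431542 libraries and at 1.37, 0.78 and 1.20 FPKM under Activin A, so it met the filter through the Activin A libraries alone and no fold is given. The study reports some of these targets for the same samples, so they are not independent evidence of direction. NANOG ran from 109 to 195 FPKM under Activin A and from 11.8 to 27.2 FPKM under SB431542. The knock-in cells had been sorted for a reporter expressed from the NANOG locus, so their higher NANOG is no independent result. Its sequence has a near-identical copy on another chromosome, so reads may have been split between loci. The median log2 fold change over the tested targets was 0.73 for knock-in against WT and 1.19 for Activin A against SB431542, where LEFTY2 enters with a value set by the pseudocount, beside -0.0014 and -0.0040 over all genes. The members' medians were -0.015 and -0.16.

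Cell markers moved between the groups. FPKM summed over 9 pericyte markers was 354 to 510 in the knock-in, 44.0 to 57.0 in WT, 333 to 447 under Activin A and 358 to 475 under SB431542. TAGLN gave most of the sum in the knock-in and treated libraries, at 282 to 457 FPKM, and less in WT, at 15.2 to 26.6 FPKM. In knock-in against WT, 3 of the 8 pericyte markers tested passed the adjusted p in limma, beside 7.22% of all genes. They were TAGLN (log2 fold change 4.21), ACTA2 (2.61) and PDGFRB (1.64), all higher in the knock-in. These 3 also passed with the block. ANPEP gave 1.29 (adjusted p 0.0501 from limma and 0.0499 with the block), RGS5 0.28, NOTCH3 0.14, CSPG4 0.11 and MCAM -0.02. Of the 8 pericyte markers tested between the treatments, ACTA2 passed, lower under Activin A (log2 fold change -1.13, adjusted p 0.035 from limma). The others did not pass and went both ways. ANPEP gave -0.55, PDGFRB -0.46, MCAM -0.46 and TAGLN -0.06, while RGS5 gave 0.63, NOTCH3 0.41 and CSPG4 0.08. Over 11 fibroblast markers the sum was 27.7 to 51.9 in the knock-in, 10.7 to 18.7 in WT, 50.3 to 75.4 under Activin A and 15.7 to 23.8 under SB431542. COL3A1 was the largest part of the highest sums, at 23.2 FPKM in knock-in library 3 and 42.9 FPKM in Activin A library 3. In knock-in against WT, 1 of the 7 fibroblast markers tested passed the adjusted p in limma, beside 7.22% of all genes. It was DCN, higher in the knock-in (log2 fold change 1.49, adjusted p 0.031 from limma and 0.043 with the block). COL3A1 was higher by mean but did not pass (adjusted p 0.297 from limma). COL1A2 gave 0.95, FBN1 0.83 and THY1 0.49, while COL1A1 and PDGFRA gave -0.39 and -0.16. Of the 7 fibroblast markers tested between the treatments, 0 passed the adjusted p in limma, with 3 at an unadjusted p of at most 0.05. With the block 2 of 7 were higher under Activin A, beside 2.88% of all genes: COL3A1 (log2 fold change 3.09, adjusted p 0.012) and COL1A2 (1.58, adjusted p 0.024). DCN gave 1.20 and THY1 0.28, and COL1A1, FBN1 and PDGFRA gave -0.10, -0.02 and -0.01. The fibroblast markers LUM, PDGFRA, POSTN, FAP and COL6A3 were below 1 FPKM in every library, as were the pericyte markers CSPG4 and DES. Of 12 pluripotent cell markers 10 were in the tables, and they summed to 295 to 517 in the knock-in, 149 to 167 in WT, 309 to 508 under Activin A and 336 to 653 under SB431542, with EPCAM, TDGF1 and ZFP42 below 1 FPKM throughout. Under the treatments that sum was mostly LIN28A and NANOG, which went opposite ways. LIN28A had a mean of 119 FPKM under Activin A and 339 FPKM under SB431542 (log2 fold change -1.55, adjusted p 0.27 from limma and 0.015 with the block), and NANOG had means of 154 and 16.9 FPKM. In knock-in against WT, 3 of 8 pluripotent cell markers passed in limma, beside 7.22% of all genes. They were LIN28A (2.08), NANOG (2.06) and SOX2 (0.60), all higher in the knock-in. With the block the adjusted p was 0.030 for LIN28A, 0.036 for NANOG and 0.0502 for SOX2. The rest ran from -0.40 for DNMT3B to 0.80 for ESRRB. In bulk RNA, fewer cells of a type and less RNA per cell cannot be told apart. Whether these markers bear on the lower ACVR2A, TGFBR3, SMAD2, SMAD3 and SMAD4 values under Activin A was not tested. Depth also differed. WT libraries had 0.57 to 0.63 times the depth of knock-in library 1 and the other knock-in libraries 0.73 and 0.87 times, while treated libraries had 0.97 to 1.13 times that of Activin A library 1.

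The gene whose log2 level followed each member most closely was found among 9576 genes over the 12 libraries. Pearson's r was 0.93 between TGFBR1 and NCOA3, 0.91 between ACVR1B and DOK1, 0.90 between ACVR2B and HEXD, 0.91 between ACVR2A and TMEM209 and 0.94 between TGFBR2 and VANGL1. It was 0.95 between TGFBR3 and ELL, 0.93 between SMAD3 and GABRQ, 0.91 between SMAD2 and EDEM1, 0.89 between SMAD4 and RCN2 and 0.95 between SMAD5 and MMADHC. At an r of at least 0.8, TGFBR3 had 168 genes, the most of the members, and SMAD5 had 3, the fewest. Within the set the highest r was 0.80, between ACVR2B and SMAD3, then 0.70 between TGFBR3 and SMAD3 and 0.70 between TGFBR1 and ACVR1B. The lowest was -0.59, between ACVR2B and SMAD5. These are descriptions over libraries that share groups and replicate numbers, and the highest of 9576 values tends to be high for any gene.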

How the data were processed

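The deposited values were FPKM per gene of 24358 genes in 2 tables, with 6 libraries each. Per the methods and the submitters' processing notes, the authors cleaned reads with Trim Galore and mapped these with HISAT2 2.0.4 on the pig genome Ssc11.1, and StringTie 1.3.3 gave FPKM over an Ensembl annotation. They tested featureCounts 1.6.4 counts with DESeq2, and those counts were not used here. Total depth is therefore unknown, no counting error is given, and the depth of libraries relative to each other is the most frequent ratio between their values under 0.3 FPKM.

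Genes with at least 0.1 FPKM in 3 of the 6 libraries were tested on log2(FPKM + 1) with limma 3.58.1 (variance trend, R 4.3.3), separately for the 2 tables, with Benjamini-Hochberg adjustment over all genes. Since a pseudocount was added, fold changes of low genes come out too small. On simulated data with 200 genes changed by a log2 fold of 2, 191 were recovered in the knock-in comparison and 186 in the treatment comparison. The changed genes were drawn only from those with a mean log2(FPKM + 1) above 2, with independent normal noise. Recovery of lower genes, or of changes as small as those of the members, was not simulated. Figures used matplotlib 3.10.9 in Python 3.11.15.

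The replicate numbers come from the sample titles. Deviations from group means correlated between same-numbered Activin A and SB431542 libraries at 0.39, 0.61 and 0.53 over 11289 genes, above every other pairing, and the block was applied there. For knock-in and WT the same values were -0.013, 0.011 and 0.11, so those numbers were not taken as pairs. Values with the block for that comparison are an alternative setting only.

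All 10 members are named, together with genes of the fixed pathway lists that passed the test or mark a receptor or cell type. The members and the lists were chosen with earlier results of these data known. Symbols were taken from the tables for 17451 genes and reached 18416 genes through the supplied list of gene names. POU5F1 had no matched identifier and is not analysed here. Coordinates are from RefSeq on Sscrofa11.1.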

Additional observations from a re-analysis of the deposited data

How the results depend on the processing

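Over 15 alternatives of the knock-in comparison and 16 of the treatment comparison, 0 of the 10 receptors and SMADs passed either rule. Fold changes that went the other way from the reported value did so where libraries were left out and were uncalled throughout. Without 1 library, those of knock-in against WT ran from -0.054 to 0.19 for SMAD2 and from -0.30 to 0.12 for SMAD4, and those of Activin A against SB431542 ran from -0.39 to 0.48 for SMAD5, from -0.098 to 0.17 for TGFBR1 and from -0.080 to 0.24 for TGFBR2. SMAD2 turned negative without knock-in library 1, knock-in library 2 or WT library 1, SMAD4 positive without WT library 2, SMAD5 negative without Activin A library 1, Activin A library 2 or SB431542 library 1, TGFBR1 negative without SB431542 library 2 and TGFBR2 negative without Activin A library 3. With Activin A library 3 and SB431542 library 1 left out, an alternative chosen after seeing the data, TGFBR2 was at -0.085. TGFBR3, ACVR2A, SMAD2, SMAD3 and SMAD4 were lower under Activin A in all 16 alternatives, with adjusted p between 0.062 and 0.70. Counts over all genes depended on the settings more, and the cause was not tested. In knock-in against WT, 324 genes were called, with 538 at a pseudocount of 0.1, 501 at a pseudocount of 0.01, 199 with no filter and 145 to 446 without 1 library, and 1012 genes passed the adjusted p alone, with 585 with no filter and 156 to 1432 without 1 library. The replicate block gave 360 there, although the numbers do not pair those libraries. In Activin A against SB431542, 13 genes were called and 19 passed the adjusted p alone, with 8 and 8 at a pseudocount of 0.01, 5 and 11 with no filter, 5 and 5 with a filter of 1 FPKM, 7 and 10 with no variance trend, 1 and 1 with Activin A library 3 and SB431542 library 1 left out, and 0 to 5 for both rules without 1 library. The replicate block, with the libraries paired by number, gave 99 and 403, and it changed no member's call. Depth is unknown, so counting error was not separated from the spread between libraries.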
